A study of Mus musculus with 6 samples.

Results

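Mitochondrially encoded transcripts are the RNAs copied from the small circular genome inside the mitochondrion. They were taken as every gene whose name starts with mt-, which gave 37 of the 55401 genes in the expression table: 2 rRNA genes, 13 protein genes and 22 tRNA genes. The rule reads gene names and no measured value. The RNA came from neutrophils sorted from mouse bone marrow. In the Lig group (n = 3) the mice had carried a silk ligature, which induces periodontitis, for 14 days. In the Ctrl group (n = 3) the mice were left without a ligature for the same 14 days, and no sham-ligated group was among the samples. Both groups were 8-week-old male C57BL/6 wild type mice. Each library pooled sorted neutrophils from 5 mice of its group, so the p-values below measure the spread between pools.

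The mitochondrial genome carries the 2 rRNAs of the mitochondrial ribosome, the tRNAs that ribosome uses, and the mRNAs of a few subunits of respiratory complexes I, III and IV and of the ATP synthase (complex V). All other subunits, the whole of complex II and every protein that copies, cuts or translates mitochondrial RNA are encoded in the nucleus. Both strands are transcribed into long precursors that are cut mainly at the tRNAs lying between the other genes, the rRNA genes stand nearest to the heavy-strand promoters, and mature neutrophils are known for few mitochondria and a reliance on glycolysis.

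The 37 genes lie close together, and the junction after the rRNA genes is shown because mt-Rnr2 on its left was higher in every Lig library while mt-Nd1 on its right had lower FPKM in every Lig library. mt-Rnr2 (1094 to 2675), mt-Tl1 (2676 to 2750) and mt-Nd1 (2751 to 3707) follow each other on the heavy-strand transcript with 0 bases between them (GRCm38, chrM, plus strand). In the junction sequence (chrM:2656-2770) capitals mark the tRNA mt-Tl1, with the end of the large rRNA before it and the start of the first complex I mRNA after it.
mt-Rnr2, mt-Tl1 and mt-Nd1: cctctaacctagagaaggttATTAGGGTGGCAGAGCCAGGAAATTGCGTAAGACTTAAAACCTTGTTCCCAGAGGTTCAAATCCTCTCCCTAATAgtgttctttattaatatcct

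The annotated ends of the protein genes differ. Of the 13, 8 end in TAA, 2 end in TAG and 3 (mt-Co3, mt-Nd4 and mt-Cytb) end in a lone T that is 1 base over a whole number of codons. In mitochondria such a T is completed to a stop codon by the poly(A) tail, which is added after the precursor has been cut. Both TAG ends share their last 2 bases with the next tRNA gene on the same strand, mt-Nd1 with mt-Ti and mt-Nd2 with mt-Tw. The TAG is thus a feature of the annotation, and where these mRNAs end was not tested. The last 30 bases of mt-Co3 (chrM:9361-9390), the protein gene on which the test below turned, and of mt-Nd1 (chrM:3678-3707) are given with the end marked in capitals.
mt-Co3 end: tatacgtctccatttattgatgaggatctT
mt-Nd1 end: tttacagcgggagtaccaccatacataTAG

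Part of this genome also exists as a near-exact copy in the nucleus. A run of 7 annotated pseudogenes on the minus strand of chromosome 1 (24611535 to 24616197, 4663 bases) matched 7 of the 13 protein genes at 99.7 to 100% identity over the aligned bases, and 5 of these 7 alignments had no mismatch. The copied genes were mt-Co1 (its last 483 bases, by Gm29216), mt-Co2 (Gm28661), mt-Atp6 (Gm10925), mt-Co3 (Gm28437), mt-Nd3 (Gm28438), mt-Nd4l (Gm10222) and mt-Nd4 (876 of its 1378 bases, by Gm28439). mt-Atp8 has no annotated copy there, but the unannotated 233 bases between Gm10925 and Gm28661 are where it would lie. Only 2 substitutions separate the aligned copies, T3C in mt-Nd3 and A1066T in mt-Co1, with positions counted from 1 at the first base of the mitochondrial gene and the mitochondrial base given first. Both are shown in capitals, because they are the only bases of the aligned stretches at which a read could tell the places apart. The windows are chrM:9459-9481 and chrM:6390-6413 (plus strand), and chr1:24613097-24613119 and chr1:24616165-24616188 (minus strand).
mt-Nd3: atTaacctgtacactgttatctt
Gm28438: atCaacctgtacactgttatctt
mt-Co1: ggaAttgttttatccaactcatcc
Gm29216: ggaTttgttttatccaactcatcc

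The libraries held 50605309 to 61455112 counts. The sort gene Ly6g had 391.0, 373.8 and 410.3 FPKM in Lig and 329.9, 325.4 and 338.3 FPKM in Ctrl (FPKM, fragments per kilobase of gene, scaled to library size). Of 12 neutrophil markers 7 rose in Lig and none fell at an adjusted p under 0.05 in edgeR's fit, where 3.96% of all genes tested were called higher and 6.43% lower, with a summed level of 113533 to 123619 FPKM in Lig and 91771 to 101439 FPKM in Ctrl. Of 12 erythroid markers 11 fell, where 6.43% of all genes tested were called lower, with a summed level of 399 to 511 FPKM in Lig and 1319 to 1777 FPKM in Ctrl. Of 10 B cell markers 7 fell, against the same 6.43%, with 156 to 174 FPKM in Lig and 284 to 344 FPKM in Ctrl. In the 8 other marker lists 9 of 35 tested markers fell and none rose: 2 of 4 for stem and progenitor cells, 2 of 5 for T and NK cells, 2 of 6 for monocytes and macrophages, 2 of 7 for cycling cells and 1 of 1 for stroma. The summed level was lower in every Lig library in 6 of these 8 lists, promyelocyte markers included (75.2 to 121.9 FPKM in Lig and 144.2 to 159.6 FPKM in Ctrl). None of the measured markers in the 11 lists was at 0 in all libraries, and their part in the results below was not tested. In such bulk RNA, fewer cells of a type and less RNA per cell cannot be told apart.

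Mitochondrial RNA was a small part of the whole. The 37 genes took 0.586% ± 0.028 of all counts in Lig and 0.698% ± 0.106 in Ctrl (SD, n = 3 each), and the groups overlapped, with Ctrl replicate 3 at 0.586%. The 3 classes of gene did not share one direction. The summed level of the 2 rRNA genes was 627.9, 608.4 and 613.4 FPKM in Lig and 529.2, 522.1 and 501.1 FPKM in Ctrl, so every Lig library was above every Ctrl library. The summed level of the 13 protein genes was 4251, 4918 and 4328 FPKM in Lig and 6850, 6055 and 4337 FPKM in Ctrl. Ctrl replicate 3 thus stood beside the Lig libraries by the values as deposited. With the 7 chromosome 1 copies added, this sum was 4961, 6414 and 5406 FPKM in Lig and 7087, 6138 and 5810 FPKM in Ctrl. The 37 genes and these copies took 0.613%, 0.721% and 0.653% of counts in Lig and 0.814%, 0.715% and 0.688% in Ctrl. Both measures still overlapped between the groups. The summed level of the 22 tRNA genes was 66.7, 82.5 and 61.7 FPKM in Lig and 84.8, 89.3 and 73.5 FPKM in Ctrl, with overlap.

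**Figure D1:**
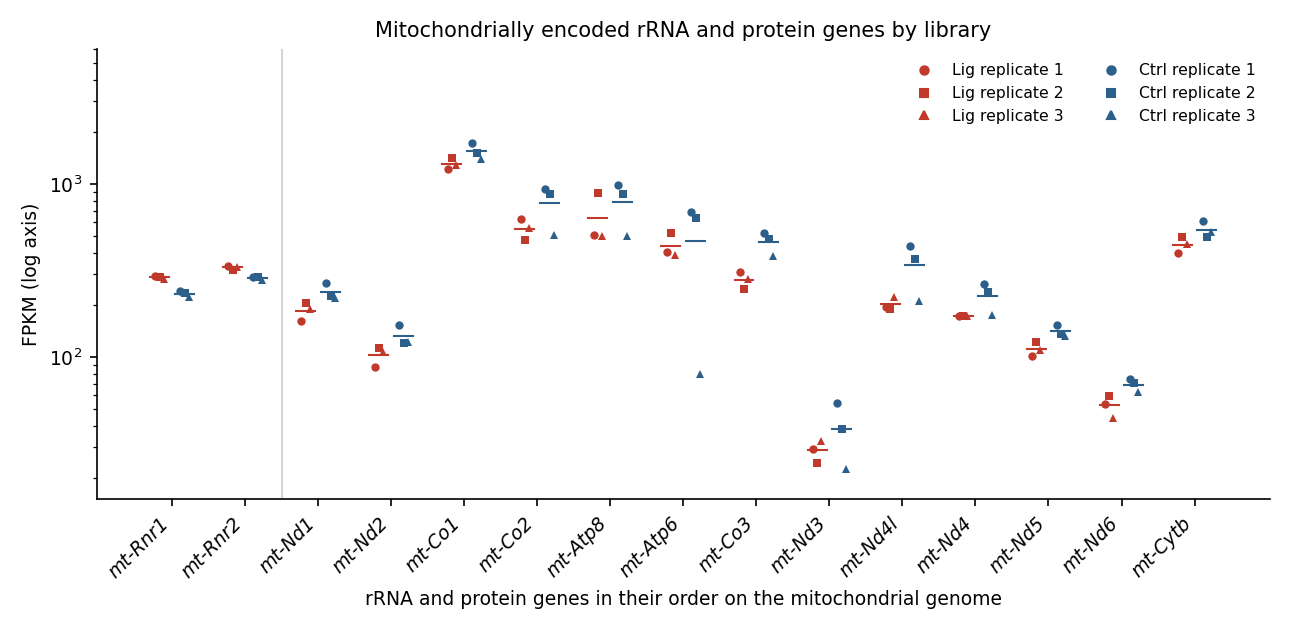
FPKM on a log axis of the 2 rRNA genes (left of the line) and 13 protein genes in their order on the mitochondrial genome, 1 point per library and a line at each group mean, Lig in red left of Ctrl in blue. The Lig points lie above all Ctrl points for both rRNA genes, and below them for 7 protein genes, while Ctrl replicate 3 falls among or under the Lig points at the 6 others (mt-Co1, mt-Co2, mt-Atp8, mt-Atp6, mt-Nd3 and mt-Nd4l).

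Both rRNAs rose in Lig. mt-Rnr1, the rRNA of the small ribosomal subunit, had 291.4, 290.4 and 281.7 FPKM in Lig and 238.7, 234.6 and 222.7 FPKM in Ctrl. mt-Rnr2, the rRNA of the large subunit, had 336.5, 318.1 and 331.7 FPKM in Lig and 290.5, 287.5 and 278.4 FPKM in Ctrl. For both genes the lowest Lig library was above the highest Ctrl library, as it was by FPKM for 9.9% of all genes tested. In edgeR's quasi-likelihood fit of the counts over 9632 genes with a mean of at least 1 FPKM, the log2 fold change (Lig over Ctrl) was 0.39 ± 0.05 for mt-Rnr1 (fitted SE, adjusted p = 0.00801) and 0.28 ± 0.05 for mt-Rnr2 (adjusted p = 0.0174), or 1.31-fold and 1.21-fold. A gene was called at an adjusted p under 0.05, and 3.96% of all genes tested were called higher in Lig, as given above. Both rRNA genes were thus among the 381 genes called higher. Whether poly(A) RNA was selected or rRNA depleted is not given in the sources used here, so these rRNA levels, and the ratios of rRNA to mRNA given further on, are those of the RNA as sequenced.

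The ratio of FPKM means was smaller, 1.24 for mt-Rnr1 and 1.15 for mt-Rnr2, since FPKM uses library size alone while the fit rescaled the libraries by factors of 0.967 to 0.976 in Lig and 1.01 to 1.05 in Ctrl. With library size alone the fitted log2 fold changes were 0.30 and 0.20 and both calls held, whereas in limma on log2(TPM + 1) mt-Rnr2 had 0.13 and lost its call (adjusted p = 0.0904). The call of mt-Rnr1 held whichever single library was left out. The call of mt-Rnr2 was lost without Lig replicate 1 (adjusted p = 0.0519), Lig replicate 3 (0.0716), Ctrl replicate 1 (0.0510) or Ctrl replicate 3 (0.0794) in the same edgeR fit, with log2 fold changes of 0.26 to 0.30 over all 6 omissions. The smaller rRNA was also higher relative to the larger: the ratio of mt-Rnr1 to mt-Rnr2 in FPKM was 0.866, 0.913 and 0.849 in Lig and 0.822, 0.816 and 0.8001 in Ctrl, without overlap.

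The protein genes leaned the other way. In the fit all 13 had a negative log2 fold change, from -0.67 (mt-Nd4l) to -0.01 (mt-Atp6), with a median of -0.29, against 4834 negative values and a median of -0.001 over all 9632 genes; mt-Atp6 turned positive in 17 of 26 alternative settings and mt-Nd3 in 5. Only mt-Co3 was called lower, 1 of 13, where 6.43% of all genes tested were called lower, and 7 of the 13 had an unadjusted p under 0.05, as had 28.5% of all genes tested in either direction. By FPKM alone, 7 of 13 had every Lig library below every Ctrl library, as had 24.9% of all genes tested, and no protein gene had every Lig library above, as had 9.9%. With the libraries rescaled as in the fit, 4 of 13 (mt-Nd1, mt-Nd2, mt-Co3 and mt-Nd5) had every Lig library below, as had 18.1% of all genes.

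The 5 protein genes outside the copied stretch (mt-Nd1, mt-Nd2, mt-Nd5, mt-Nd6 and mt-Cytb) all belonged to the 7 separated by FPKM, and 3 of them stayed separated with the libraries rescaled, where mt-Nd6 and mt-Cytb overlapped. Their summed level was 798.3, 990.5 and 897.3 FPKM in Lig and 1261, 1045 and 1063 FPKM in Ctrl, a ratio of means of 0.797, with every Lig library below every Ctrl library. mt-Nd1, a membrane subunit of complex I, had 160.0, 204.4 and 189.2 FPKM in Lig and 267.9, 224.1 and 219.9 FPKM in Ctrl. Its log2 fold change was -0.29 ± 0.10 (edgeR, adjusted p = 0.124). mt-Nd2, another membrane subunit of complex I, had 87.8, 112.8 and 106.2 FPKM in Lig and 153.2, 120.8 and 122.4 FPKM in Ctrl, with a log2 fold change of -0.29 ± 0.12 (edgeR, adjusted p = 0.151). Lig replicate 1 was the lowest library and Ctrl replicate 1 the highest for both genes.

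mt-Nd5, a long proton-pumping subunit of complex I, came nearest to a call among these 5. It had 100.9, 122.2 and 109.9 FPKM in Lig and 152.8, 136.0 and 132.1 FPKM in Ctrl, with a log2 fold change of -0.26 ± 0.08 (edgeR, adjusted p = 0.0855). mt-Cytb, the only mitochondrially encoded subunit of complex III, had 396.0, 492.0 and 447.6 FPKM in Lig and 612.9, 492.9 and 526.7 FPKM in Ctrl. Its highest Lig library and lowest Ctrl library were nearly equal, and the log2 fold change was -0.21 ± 0.10 (edgeR, adjusted p = 0.196). The 5 log2 fold changes lay between -0.32 and -0.21, so all 5 pointed the same way and none passed in this fit. mt-Nd5 was called lower by DESeq2 (adjusted p = 0.0399), by edgeR with library size alone (0.0462) and by limma on log2(TPM + 1) (0.0344), and mt-Nd6 by the last of these (0.0417). In that order, these settings called 994, 917 and 1232 of all 9632 genes tested lower. The median log2 fold change over all genes was 0.003, -0.083 and -0.14 in them, so the last 2 scalings moved all genes downward.

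mt-Nd6 is the only protein gene read from the other strand, and its base composition shows it: its mRNA is 28.1% G and 6.0% C, where that of mt-Nd5, which overlaps it by 14 bases on the opposite strand, is 10.0% G and 27.1% C. mt-Nd6 had 53.6, 59.2 and 44.5 FPKM in Lig and 74.2, 70.8 and 62.2 FPKM in Ctrl, with a log2 fold change of -0.32 ± 0.12 (edgeR, adjusted p = 0.134). Relative to mt-Nd5 it stood at 0.531, 0.485 and 0.405 in Lig and 0.486, 0.521 and 0.471 in Ctrl, with overlap. Whether the counting used strand is not given in the sources used here, so reads of the overlap and of antisense RNA cannot be assigned to 1 of the 2 genes.

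Of 7 ratios between mRNAs within a library, 6 overlapped between the groups. The ratio of mt-Nd2 to mt-Nd1 was 0.549, 0.552 and 0.562 in Lig and 0.572, 0.539 and 0.557 in Ctrl, and that of mt-Nd5 to mt-Nd1 was 0.631, 0.598 and 0.581 in Lig and 0.570, 0.607 and 0.601 in Ctrl. Both overlapped. The ratio that did not was that of mt-Co1 to mt-Nd1, at 7.57, 6.90 and 6.78 in Lig and 6.42, 6.75 and 6.36 in Ctrl, without the chromosome 1 copy of mt-Co1. The ratio of mt-Rnr2 to mt-Nd1, the genes on the left and right of mt-Tl1 in the junction printed above, was 2.10, 1.56 and 1.75 in Lig and 1.08, 1.28 and 1.27 in Ctrl. Such ratios do not depend on how the libraries were scaled, but this one could not overlap, since mt-Rnr2 was higher and mt-Nd1 lower in every Lig library, and it restates both as 1 size. The rRNA sum over the protein sum was 0.148, 0.124 and 0.142 in Lig and 0.0773, 0.0862 and 0.116 in Ctrl, without overlap although the protein sums overlapped. Over the 5 genes outside the copied stretch it was 0.787, 0.614 and 0.684 in Lig and 0.420, 0.4998 and 0.471 in Ctrl, a ratio of means of 1.499, and this ratio too was bound not to overlap.

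**Figure D2:**
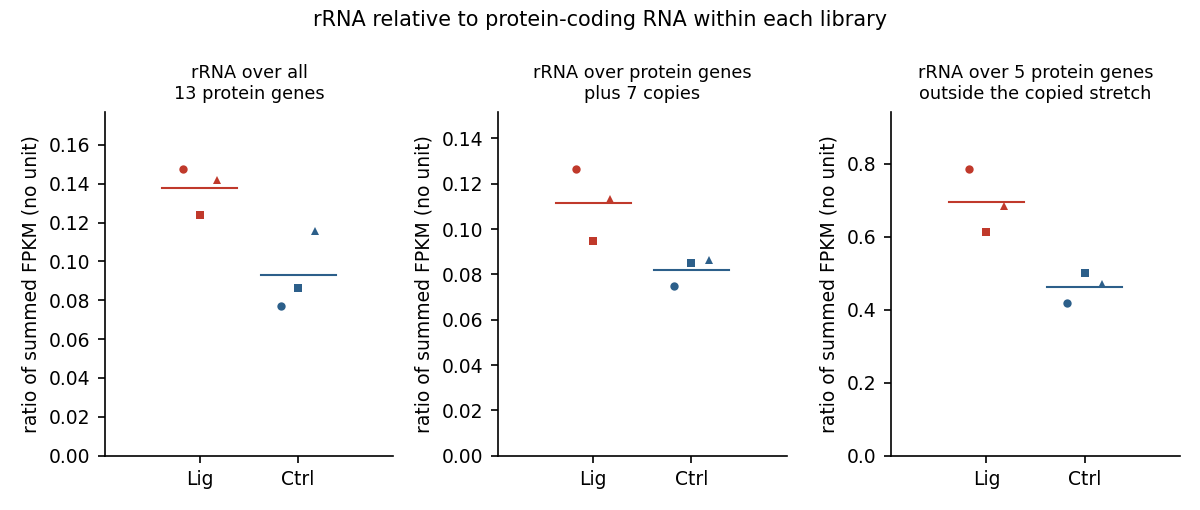
Ratio of the summed FPKM of the 2 rRNA genes to that of 3 sets of protein-coding RNA, 1 point per library and a line at each group mean, Lig in red left of Ctrl in blue, each axis starting at 0 (circle, square and triangle are replicates 1, 2 and 3). All Lig points lie above all Ctrl points in the 3 panels; in the middle one the lowest Lig ratio is 0.0949 and the highest Ctrl ratio 0.0862.

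Of the 7 protein genes with a copy on chromosome 1, 5 overlapped between the groups, each with Ctrl replicate 3 among or under the Lig libraries. mt-Atp6, a membrane subunit of the ATP synthase, had 404.3, 522.5 and 387.5 FPKM in Lig and 683.2, 633.5 and 79.3 FPKM in Ctrl. Ctrl replicate 3 was the lowest of the 6 libraries there, and the log2 fold change was -0.01 ± 0.65 (edgeR, adjusted p = 0.993). Its copy Gm10925 was high in the same library, at 141.9, 137.6 and 185.1 FPKM in Lig and 34.5, 15.1 and 316.6 FPKM in Ctrl. Of the counts of mt-Atp6 and Gm10925 together, the copy held 25.9%, 20.8% and 32.2% in Lig and 4.79%, 2.32% and 79.9% in Ctrl.

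The same split appeared at the other copied genes. The median share of the copy over the 7 pairs was 24.1%, 47.3% and 33.4% in Lig and 5.76%, 2.28% and 44.6% in Ctrl. Ctrl replicates 1 and 2 were thus low, and Ctrl replicate 3 was in or above the Lig range at 6 of the 7 pairs, all but mt-Co3. The summed level of the 7 copies was 709, 1496 and 1078 FPKM in Lig and 237, 82.7 and 1473 FPKM in Ctrl. None of the copies was called in the edgeR fit over all genes tested (adjusted p = 0.203 to 0.814). How reads that match both places were assigned is not given in the sources used here, and for 5 pairs the aligned sequences hold no base that could tell them apart.

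**Figure D3:**
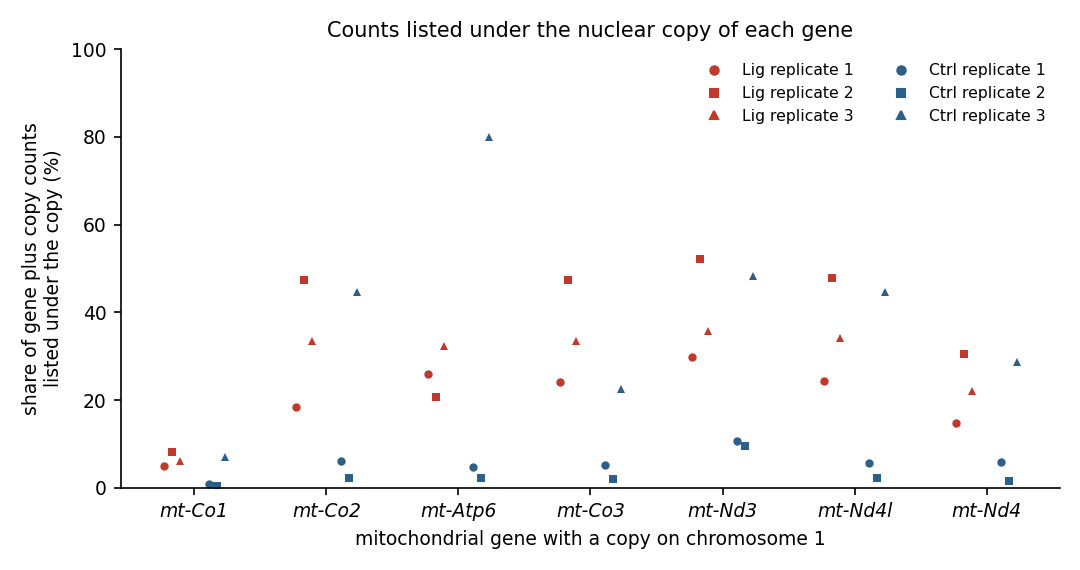
Share in percent of the counts of a mitochondrial gene and its chromosome 1 copy together that was listed under the copy, for the 7 copied genes in genome order, 1 point per library, Lig in red left of Ctrl in blue. Ctrl replicates 1 and 2 lie at the bottom, while Ctrl replicate 3 stands with the Lig libraries or above them, up to 79.9% at mt-Atp6; at mt-Co3 its 22.6% is just under the lowest Lig share of 24.1%.

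mt-Co3, the third of the large cytochrome c oxidase (complex IV) subunits, was the only called protein gene and is among the copied ones. It had 308.4, 247.6 and 282.1 FPKM in Lig and 517.1, 477.1 and 384.1 FPKM in Ctrl, so every Lig library was below every Ctrl library. The log2 fold change was -0.64 ± 0.12 (edgeR, adjusted p = 0.0245), or 0.641-fold. Its copy Gm28437 ran the other way, at 98.03, 222.7 and 141.9 FPKM in Lig and 28.9, 10.3 and 112.3 FPKM in Ctrl. When the counts of each copy were added to its gene, a setting chosen after seeing the data, mt-Co3 with Gm28437 had a log2 fold change of -0.16 ± 0.07 (edgeR, adjusted p = 0.171), or 0.895-fold, and the call was lost. The sum stayed lower in every Lig library, at 362, 417 and 378 CPM in Lig and 487, 434 and 443 CPM in Ctrl (CPM, counts scaled to the library total).

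The fitted values of the other copied genes were also higher with the copies added than without. With the copies added the log2 fold change was -0.11 for mt-Co1 (-0.17 without), -0.09 for mt-Co2 (-0.41 without), 0.09 for mt-Atp6 (-0.01 without), 0.05 for mt-Nd3 (-0.33 without), -0.28 for mt-Nd4l (-0.67 without) and -0.12 for mt-Nd4 (-0.32 without), all uncalled. The median of the 7 copied genes was -0.33 with the counts as deposited and -0.11 with the copies added. That of the 5 genes outside was -0.29 in both. With the copies added no protein gene was called, where 6.45% of all 9625 genes tested were called lower, and the smallest adjusted p was 0.0838, for mt-Nd5; 5 protein genes had an unadjusted p under 0.05, as had 28.6% of all genes in either direction. Both rRNA calls held with the copies added (edgeR, adjusted p = 0.00756 for mt-Rnr1 and 0.0174 for mt-Rnr2), where 3.95% were called higher.

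The count of called protein genes also hung on single libraries. Without Ctrl replicate 3, 4 protein genes were called lower, all copied ones, where 2.08% of all genes tested were called lower: mt-Co2 (log2 fold change -0.64, adjusted p = 0.0497), mt-Co3 (-0.76, adjusted p = 0.0253), mt-Nd4l (-0.92, adjusted p = 0.0191) and mt-Nd4 (-0.47, adjusted p = 0.0248), all in edgeR's fit. With that library left out and the copies added, none was called, where 1.99% of all genes were called lower, and the median over the 13 was -0.24. mt-Co3 lost its call without Lig replicate 2 (edgeR, adjusted p = 0.0630), Lig replicate 3 (0.0799), Ctrl replicate 1 (0.0706) or Ctrl replicate 2 (0.0578), with 0 protein genes called in each.

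**Figure D4:**
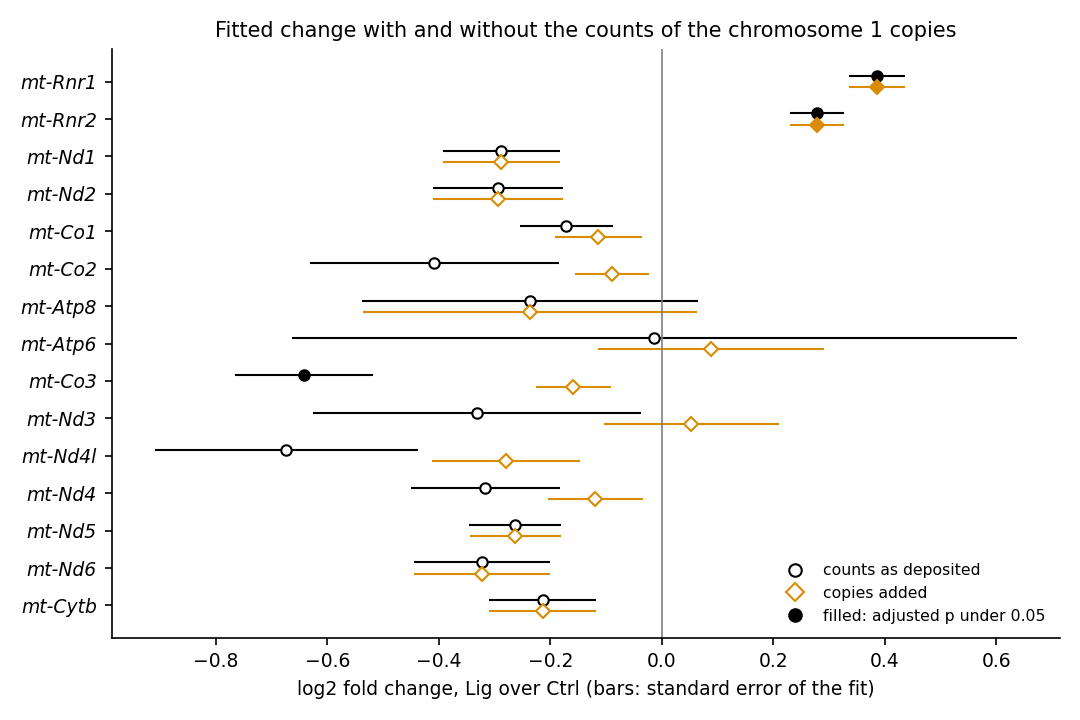
Fitted log2 fold change (Lig over Ctrl) with its standard error of the 2 rRNA and 13 protein genes, in genome order from the top, from the counts as deposited (black circles) and with the counts of the chromosome 1 copies added (orange diamonds); filled symbols have an adjusted p under 0.05. mt-Rnr1 and mt-Rnr2 stay filled in both fits, mt-Co3 moves to -0.16 and is no longer filled, and the 5 genes outside the copied stretch stay in place.

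Levels within the class differed far more than the groups did. mt-Co1, the catalytic subunit of complex IV, was the highest protein gene in all 6 libraries and ranked between 16 and 24 among all 55401 genes, at 1211, 1411 and 1283 FPKM in Lig and 1721, 1514 and 1399 FPKM in Ctrl. mt-Nd3, a small complex I subunit, was the lowest in all 6 by the values as deposited, without the counts of its copy, at 29.3, 24.3 and 32.6 FPKM in Lig and 54.0, 38.1 and 22.3 FPKM in Ctrl, and mt-Nd6 was next to lowest in all 6. The highest exceeded the lowest by 39.3-fold to 58.0-fold in Lig libraries and 31.9-fold to 62.6-fold in Ctrl libraries. After mt-Co1, the genes mt-Atp8, mt-Co2, mt-Cytb and mt-Atp6 followed by mean level and exchanged ranks between libraries. By the values as deposited their order was thus not set, as for mt-Nd1 against mt-Nd4 and mt-Nd5 against mt-Nd2. These ranks leave out the copies: mt-Atp6 ranked 11 in Ctrl replicate 3, where its copy held 79.9% of the counts of both. mt-Co2 ranked 5 in Lig replicate 2, where its copy held 47.3%.

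Since these mRNAs serve different complexes, their levels were also summed by complex. The 7 complex I genes summed to 851 ± 47.4 FPKM in Lig and 1180 ± 228 FPKM in Ctrl (SD, n = 3 each), and the 3 complex IV genes to 2132 ± 14.0 FPKM in Lig and 2774 ± 448 FPKM in Ctrl. In both sums every Lig library was below every Ctrl library. All 3 complex IV genes are copied on chromosome 1, and with the counts of their copies the share of all counts was 0.320%, 0.380% and 0.342% in Lig and 0.432%, 0.379% and 0.380% in Ctrl, so the groups then overlapped. For complex I, with 3 of 7 genes copied, the share with the copies was 0.0938%, 0.117% and 0.106% in Lig and 0.145%, 0.123% and 0.123% in Ctrl, with no overlap by library size but with overlap once rescaled as in the fit (969, 1201 and 1088 CPM in Lig and 1388, 1218 and 1189 CPM in Ctrl). The 2 complex V genes summed to 1070 ± 295 FPKM in Lig and 1249 ± 588 FPKM in Ctrl, with overlap. mt-Atp8, an accessory subunit whose gene shares 43 bases with mt-Atp6, had 507.8, 888.6 and 500.5 FPKM in Lig and 979.6, 875.7 and 497.0 FPKM in Ctrl, with a log2 fold change of -0.24 ± 0.30 (edgeR, adjusted p = 0.652). Reads in shared bases could be given to either gene.

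The tRNA genes gave few counts. They are 59 to 75 bases long, shorter than a single 150-base read, and had 0 to 109 counts per library; 14 of the 22 reached the mean of 1 FPKM and were tested, and 8 did not. None was called in either direction by edgeR, none had an unadjusted p under 0.05, and DESeq2 called none, whereas limma called mt-Tl1 lower, where 7.26% of all genes were called lower. mt-Tl1, a leucine tRNA that serves as the cut point between mt-Rnr2 and mt-Nd1, was the most abundant, with 81, 56 and 74 counts in Lig and 109, 100 and 106 in Ctrl. Every Lig library was below every Ctrl library, with a log2 fold change of -0.49 ± 0.21 (edgeR, adjusted p = 0.188) and of -0.54 in limma on log2(FPKM + 1) (adjusted p = 0.0253). Reads of the uncut precursor and of the free tRNA cannot be told apart in these counts.

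Of the other tRNA genes, mt-Te (glutamate) had 47, 56 and 42 counts in Lig and 51, 49 and 41 in Ctrl. mt-Tp (proline) had 37, 53 and 28 counts in Lig and 40, 27 and 33 in Ctrl. Both are read from the light strand, as are 8 of the 22, and both overlapped between the groups. Over the 22, 1 gene (mt-Tv) had every Lig library above Ctrl by FPKM, with 6, 6 and 5 counts in Lig and 3, 2 and 2 in Ctrl, 1 (mt-Tl1) had every Lig library below, and 20 overlapped, where 9.9% of all genes tested lay above and 24.9% below; mt-Tv was under the level filter and so not tested.

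Few nuclear genes of the same complexes were called. Of 75 measured nuclear subunit genes, 72 were tested, 1 rose and none fell, where 3.96% of all genes tested were called higher and 6.43% lower, with a median log2 fold change of 0.06 and 46 positive values. The gene that rose was Atp5l, a subunit of the ATP synthase membrane part, at 9.98 ± 0.25 FPKM in Lig and 8.47 ± 0.26 FPKM in Ctrl (log2 fold change 0.31 ± 0.05, edgeR, adjusted p = 0.0179). Its call was lost in limma on log2(FPKM + 1) (adjusted p = 0.0615) and without Lig replicate 3, Ctrl replicate 1 or Ctrl replicate 3 in edgeR. The nuclear complex IV subunit Cox5b had a log2 fold change of 0.25 ± 0.07 (edgeR, adjusted p = 0.0623) and Cox4i1 one of -0.41 ± 0.16 (edgeR, adjusted p = 0.132). For complex I, Ndufb11 had 0.20 ± 0.06 (edgeR, adjusted p = 0.0851), and for complex III, Cyc1 had -0.24 ± 0.10 (edgeR, adjusted p = 0.160). The summed level of the 75 nuclear subunit genes was 1628 ± 48.5 FPKM in Lig and 1650 ± 20.3 FPKM in Ctrl, with overlap. Once rescaled as in the fit it averaged 1675 in Lig and 1604 in Ctrl, the other direction. Every Lig library (1715, 1616 and 1694) was then above every Ctrl library (1597, 1614 and 1600).

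**Figure D5:**
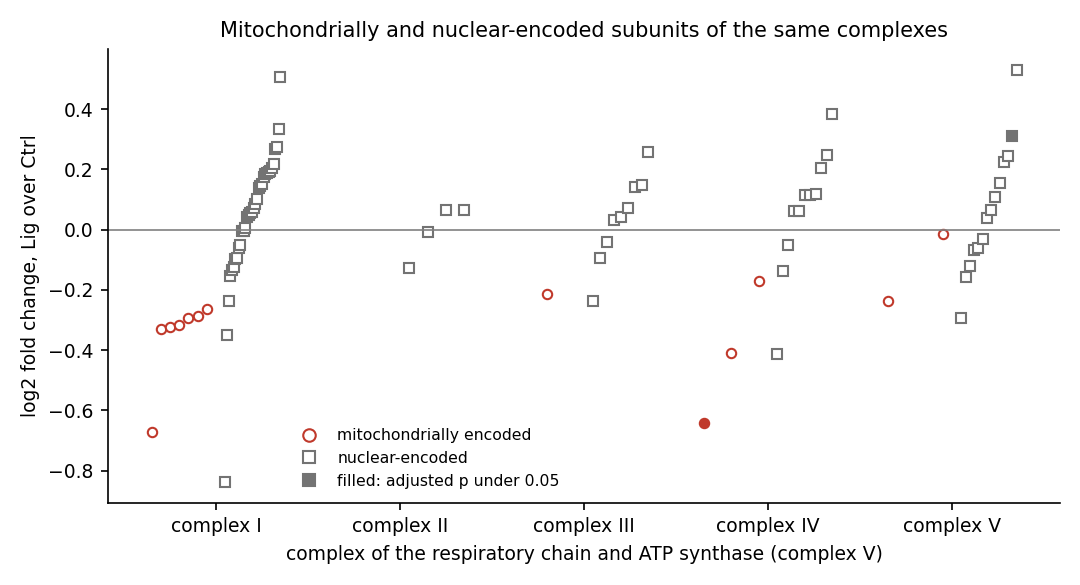
Fitted log2 fold change (Lig over Ctrl) of the mitochondrially encoded subunits (red circles) and nuclear-encoded subunits (grey squares) of complexes I to V, sorted within each set; filled symbols have an adjusted p under 0.05, and complex II has no mitochondrially encoded subunit. All 13 red points are below 0, with mt-Co3 at -0.64 filled, while 46 of 72 grey points are above 0 and Atp5l at 0.31 is the only one filled.

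Nuclear genes that serve mitochondrial gene expression gave 2 calls. Of 93 measured ones, which cover transcription, replication, RNA processing, tRNA and rRNA maturation and translation factors, 47 were tested, 1 rose and 1 fell, against the same 3.96% and 6.43% of all genes, with a median log2 fold change of -0.06. Their summed level was 249.4 ± 4.0 FPKM in Lig and 274.7 ± 4.8 FPKM in Ctrl (SD, n = 3 each), lower in every Lig library. Once rescaled as in the fit it was 253.1, 257.6 and 258.8 in Lig and 265.3, 266.6 and 269.1 in Ctrl. Taken singly, each of the lists in this sum overlapped between the groups once rescaled. Pus1, which makes pseudouridine in tRNAs, fell to 1.30 ± 0.06 FPKM in Lig, against 2.26 ± 0.19 FPKM in Ctrl (log2 fold change -0.72 ± 0.14, edgeR, adjusted p = 0.0270), and its call was lost whichever single library was left out. Cdk5rap1, which modifies a base beside the anticodon of mitochondrial tRNAs, was at 3.21 ± 0.48 FPKM in Lig and 1.67 ± 0.49 FPKM in Ctrl (log2 fold change 1.02 ± 0.22, edgeR, adjusted p = 0.0329). Its call was lost in limma on log2(FPKM + 1) (adjusted p = 0.0529) and without Lig replicate 1, Lig replicate 3, Ctrl replicate 2 or Ctrl replicate 3 in edgeR. Mterf4, which works in mitochondrial ribosome assembly, had 0.90 ± 0.23 (edgeR, adjusted p = 0.0533). The 13 tested genes of RNA processing and decay had a median of -0.31 with none called. Rexo2, which degrades short RNAs, had -0.67 ± 0.18 (edgeR, adjusted p = 0.0619) and Elac2, which cuts the 3′ end of tRNAs from the precursor, had -0.54 ± 0.20 (edgeR, adjusted p = 0.127).

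Of 16 genes often used to gauge mitochondrial mass, 1 rose, 3 fell and 12 did not pass, where 3.96% of all genes tested were called higher and 6.43% lower. The median log2 fold change of the 16 was -0.10, with 4 positive values. Their summed level was 244, 238 and 244 FPKM in Lig and 274, 259 and 264 FPKM in Ctrl. Once rescaled as in the fit it was 253, 244 and 250 in Lig and 262, 257 and 256 in Ctrl. Both ways every Lig library was below every Ctrl library. Hspd1, a chaperone of the matrix, fell to 6.05 ± 0.51 FPKM in Lig, against 10.6 ± 1.11 FPKM in Ctrl (log2 fold change -0.73 ± 0.11, edgeR, adjusted p = 0.0105). Hspa9, another matrix chaperone, had a log2 fold change of -0.55 ± 0.08 (edgeR, adjusted p = 0.0103), and Slc25a4, an exchanger of ADP and ATP, one of -0.90 ± 0.15 (edgeR, adjusted p = 0.0153). The calls of Hspd1 and Hspa9 held whichever single library was left out, and that of Slc25a4 was lost without Lig replicate 3, Ctrl replicate 1 or Ctrl replicate 3. Tomm22, a receptor of the protein import pore, had 0.28 ± 0.06 (edgeR, adjusted p = 0.0308), a call lost in limma on log2(FPKM + 1) (adjusted p = 0.0602) and whichever single library was left out. None of 6 tested regulators of mitochondrial biogenesis was called; Esrra had 0.25 ± 0.08 (edgeR, adjusted p = 0.0833).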

How the data were processed

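RNA of 6 libraries (3 Lig, 3 Ctrl) was sequenced with paired 150-base reads. Per the labels the submitters' notes name cutadapt 1.9, FastQC and the GRCm38 build. The sources used here do not give the aligner, the counter, strand use, poly(A) selection or rRNA depletion. The authors deposited 1 table of FPKM and estimated counts per gene; FPKM is scaled to library size only. Between 40.2% and 41.3% of counts from 1 to 16 were multiples of 4, so these deposited counts may not be read pairs, and dividing by 4 was an alternative. All 37 members had the coordinates of GENCODE M21, whose transcripts gave the sequences printed.

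Counts were used as deposited, genes kept where FPKM averaged 1 or more, and Lig was tested against Ctrl with edgeR 4.0.16 in R 4.3.3 (TMM, quasi-likelihood, Benjamini-Hochberg over all genes tested). The fit was tested on simulated data. Nuclear copies were found with blastn 2.17.0 (at least 100 bases at 90% identity), and those at 99% or more were added to their genes in alternatives chosen after seeing the data. Other alternatives used DESeq2 1.42.0, limma 3.58.1 on log2(FPKM + 1), log2(FPKM + 0.1) or log2(TPM + 1), other filters (none, 5 FPKM, a mean count of 40), other scalings, a replicate block and each library left out. The members, although their rule reads names only, and the gene lists were chosen with earlier results of these data known. Every mt- gene could be named, with the sort genes, the 3 most abundant nuclear copies and up to 4 genes of smallest p per pathway list; the other chromosome 1 copies and Gm13341 were named after their values were seen. Groups and replicate numbers came from the labels. The total counts limit precision most for the tRNA genes, where counting error is large, whereas counting error alone is small for the rRNA and protein genes.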

Additional observations from a re-analysis of the deposited data

How the results depend on the processing

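The rise of mt-Rnr1 was called in 25 of 26 alternatives and that of mt-Rnr2 in 16, both positive in all 26, and the lower mt-Co3 was called in 13 and negative in all 26. Of the 26, 18 left the copies out. The others added the copies, which leaves the rRNA counts unchanged, so for both rRNA genes they nearly repeat fits without the copies. Both rRNA genes were called in the edgeR fit; limma on log2(TPM + 1), a scaling that moved the median of all genes to -0.14, called 1 and lost mt-Rnr2, the replicate block called 0, and leaving out 1 library called 1 to 2. Protein genes called lower numbered 1, where 619 of all 9632 genes were called lower. DESeq2 called 3 (994 of all genes), library size alone 2 (917), limma on TPM 3 (1232) and the replicate block 0 (38). Copies added called 0 (0 also with limma), and leaving out 1 library called 0 to 4 (0 to 0 with copies added). The limma settings called 1 tRNA gene lower, as did limma with copies added, against 0. Over all genes, a mean count of 40 called 566 higher and 740 lower of 12912. Leaving out 1 library called 83 to 249 higher and 195 to 445 lower of 9632, and the other settings are given in the next paragraph. Pathway genes called higher and lower numbered 3 and 4; DESeq2 gave 8 and 11, library size alone 7 lower, limma 0 higher on FPKM (either pseudocount, and with copies added), 0 and 11 on TPM, a mean count of 40 gave 6 and 7, the replicate block 0 and 0, and leaving out 1 library 0 to 4 and 2 to 4. The log2 fold change of mt-Atp6 turned positive in 17 of 26: 0.41 and 0.42 in limma on log2(FPKM + 1) and log2(FPKM + 0.1), 0.34 on TPM, 0.027 without a filter, 0.026 with a mean count of 40, 0.43 with the replicate block, 0.088 with copies added (0.055 in limma), and -0.51 to 0.35 leaving out 1 library (-0.13 to 0.24 with copies added). That of mt-Nd3 turned positive in 5, at 0.053 with copies added and -0.03 to 0.23 there with 1 library left out (-0.60 to -0.01 without them). The cause was not tested, other than that copies added sums counts of both places.

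The deviations of same-numbered Lig and Ctrl libraries from their group means correlated at -0.10, -0.10 and 0.03, so the numbers were not taken to pair them. The replicate block cut the calls over all genes to 16 higher and 38 lower, against 381 and 619, and took mt-Rnr1 to an adjusted p of 0.0529 (edgeR). DESeq2 called 749 higher and 994 lower, library size alone 168 and 917, limma 165 and 699, and limma on TPM 97 and 1232, so the higher share of calls was 43.0%, 15.5%, 19.1% and 7.3% against 38.1%. The tRNA genes had 0 to 109 counts per library, so counting error is largest there.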

Other observations

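Of the 10 other annotated copies found at 90 to 98% identity, the most abundant was Gm13340 on chromosome 2, a copy of the whole of mt-Co1 at 97.6% identity with 37 mismatches. It had 2.53, 3.49 and 2.88 FPKM in Lig and 4.0, 2.94 and 5.03 FPKM in Ctrl, far under the 204, 389 and 262 FPKM in Lig and 53.1, 18.8 and 331 FPKM in Ctrl of Gm29216, the chromosome 1 copy of the last part of the same gene. Gm13341, a copy of mt-Co2 beside it at 95.9% identity, had 1.44, 1.44 and 2.33 FPKM in Lig and 1.92, 1.40 and 2.74 FPKM in Ctrl.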
